A study of Danio rerio with 2 samples.

Results

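The transcripts described here are 8 genes that encode transcription factors of the endoderm and of the yolk syncytial layer (YSL), chosen by their symbols: mxtx1, mxtx2, sox32, sox17, gata5, gata6, sebox and hnf4a. All 8 symbols were found, each in 1 of the 32571 rows of the table. RNA was taken at 6 hpf (hours post fertilization), when gastrulation begins, from whole AB zebrafish embryos that had been injected with Dcp2-DN, and from mock-injected AB embryos of the same age. Dcp2 is the enzyme that removes the cap of an mRNA, and the field uses the name Dcp2-DN for a dominant-negative form of it. Each extraction pooled 40 to 50 embryos, ribosomal RNA was depleted, and the stranded libraries did not select for a poly(A) tail. The labels list 1 sample for each group, and the design text speaks of 3 replicates.

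The YSL is a layer of nuclei within the yolk cell that lies beneath the blastoderm. It feeds the embryo with yolk products and sends Nodal signals to the overlying margin. Marginal cells that receive strong Nodal signals become endoderm, the source of the gut and its organs. In zebrafish this runs through a known cascade in which Nodal signals turn on the homeobox genes bon and sebox (also called mezzo) and the GATA factor gene gata5, these act with Eomesodermin on sox32, and sox32 in turn switches on sox17. In the YSL, the maternal factor Nanog is known to act through mxtx2.

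The authors' deposited table gave 1 FPKM value per gene and group (fragments per kilobase, scaled to library size by a method not given). A level thus carries no SD and no n. A gene is said to have risen, fallen or been called where that table marked it significant, which meant a q-value under 0.05 in the authors' Cuffdiff test. The sources used here do not say how many of the 3 replicates that test used or whether they came from separate clutches, so the spread behind its p-values may be technical. The table holds no counts, so depth is unknown. Embryos were measured whole, so fewer cells of a type and less RNA per cell cannot be told apart. As a check of the labels, 1 of 2 gene models named dcp2 (ENSDARG00000089419) was at 212 FPKM in Dcp2-DN and 0.0398 FPKM in mock embryos. The other model (ENSDARG00000039016) was at 16.7 FPKM in Dcp2-DN and 13.9 FPKM in mock embryos, and neither was called in the authors' deposited table.

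Of the 8 regulators, mxtx2 and sebox rose in Dcp2-DN embryos, sox17 fell, and the other 5 had no call. The largest difference was that of mxtx2, at 2.62 times its mock level. sox32, the gene that sets endoderm fate, differed from its mock level by 1.01-fold after rounding, as did hnf4a. All 8 had a test in the authors' deposited table. Over all 14810 tested rows 20.6% were called higher and 4.35% lower, so 2 rises and 1 fall among 8 genes are not far from what the whole table shows. Log2 ratios are given as Dcp2-DN over mock with 0.1 FPKM added to each value, and their median was 0.0045 over the 8 regulators and 0.12 over all tested rows. The background varied with level. At a mean of 100 to 1000 FPKM, where 4 of the 8 regulators lie, the median over tested rows was -0.13. There 9.11% were called higher and 10.5% lower. With a fold of at least 1.5 also required, sebox and sox17 lost their calls, and 11.9% of tested rows were then higher and 0.885% lower by the authors' deposited table. At q under 0.01, sox17 alone lost its call, with 13.5% of tested rows higher and 1.55% lower. At an unadjusted p under 0.05 the same 3 regulators passed, with 27.5% of tested rows higher and 8.22% lower.

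The summed level of the 8 regulators was 878 FPKM in Dcp2-DN and 806 FPKM in mock embryos. mxtx2 made up 80.5% of that difference. The other 7 summed to 784 FPKM in Dcp2-DN and 770.0 FPKM in mock embryos, with a median log2 ratio of -0.0073. All rows together summed to 908503 FPKM in Dcp2-DN and 963061 FPKM in mock embryos.

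**Figure D1:**
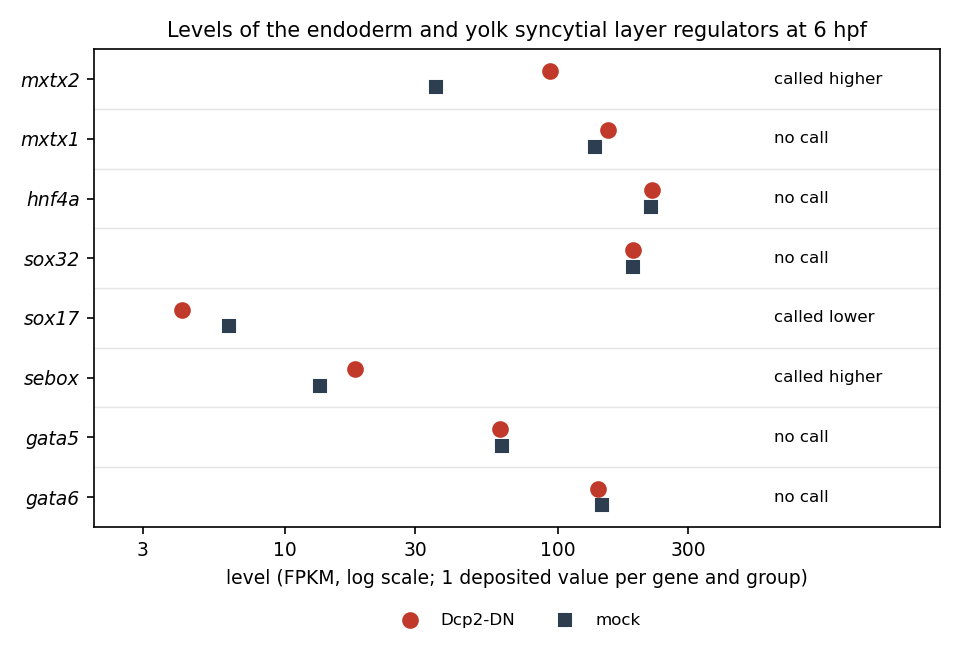
Level of each regulator in FPKM on a log axis, with 1 deposited value per gene and group, so there are no error bars (red circles, Dcp2-DN; dark squares, mock). The symbols of mxtx2 (93.6 FPKM in Dcp2-DN and 35.8 FPKM in mock embryos), sebox and sox17 stand apart, while those of hnf4a (221 FPKM in Dcp2-DN and 219 FPKM in mock embryos) and sox32 nearly coincide.

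Of the YSL regulators mxtx2, mxtx1 and hnf4a, mxtx2 was the gene with a call. mxtx2 encodes a Mix-type homeobox factor needed for the formation of the YSL (ENSDARG00000015906, chromosome 12, 30784434 to 30785976, Zv9 locus span as deposited). It was at 93.6 FPKM in Dcp2-DN and 35.8 FPKM in mock embryos, a log2 ratio of 1.38. Its p of 5e-05 and q of 0.000593 are the lowest in the authors' deposited table, and 1249 rows share them. Among the 3051 genes called higher in the authors' deposited table it ranked 102 by log2 ratio, and 45 among the 1809 of them with a mean of at least 10 FPKM. By level it ranked 1395 of the 14810 tested rows in Dcp2-DN and 3436 in mock embryos.

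mxtx1 encodes the related Mix-type factor of the YSL (ENSDARG00000069382, chromosome 13, 21796924 to 21800415). It was at 152 FPKM in Dcp2-DN and 137 FPKM in mock embryos, without a call (p = 0.17 and q = 0.334 in the authors' deposited table). In mock embryos mxtx1 was thus the more abundant of the related pair by 3.82-fold per length, and in Dcp2-DN embryos by 1.63-fold. The difference between the responses of these genes was not tested, since the table holds 1 value per group.

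hnf4a encodes a nuclear receptor known from liver and gut that is also transcribed in the YSL (ENSDARG00000021494, chromosome 23, 26120027 to 26153195). It was the most abundant of the 8 in both groups, at 221 FPKM in Dcp2-DN and 219 FPKM in mock embryos. The authors' deposited table gave q = 0.950 and made no call. The ratio of hnf4a to mxtx2 was 2.36 in Dcp2-DN and 6.11 in mock embryos, and this shift came almost wholly from the level of mxtx2.

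Among sebox, gata5 and gata6, sebox was the gene with a call. sebox encodes a paired-type homeobox factor that Nodal signals induce directly (ENSDARG00000042526, chromosome 5, 70368136 to 70378675). It was at 18.1 FPKM in Dcp2-DN and 13.4 FPKM in mock embryos, 1.35-fold higher. Its p was 0.00015 and its q 0.00153 in the authors' deposited table. This was a modest rise for the table: by log2 ratio sebox ranked 2455 of the 3051 genes called higher.

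gata5 encodes a zinc finger factor that promotes both endoderm and heart fates (ENSDARG00000017821, chromosome 23, 7453292 to 7464593). It was at 61.1 FPKM in Dcp2-DN and 62.5 FPKM in mock embryos, with q = 0.868 in the authors' deposited table. gata6, its close relative with overlapping roles in endoderm and heart (ENSDARG00000035831, on the unplaced Zv9_scaffold3540, 164733 to 175324), was at 139.7 FPKM in Dcp2-DN and 144 FPKM in mock embryos, with q = 0.794 in the authors' deposited table. Neither GATA gene was called. The ratio of gata6 to gata5 was 2.29 in Dcp2-DN and 2.31 in mock embryos.

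The SOX genes at the end of the cascade are neighbours on chromosome 7, with 48376 bases between their locus spans. sox32, also known as casanova, is required for all endoderm (ENSDARG00000041341, 65340358 to 65342023). It was at 187 FPKM in Dcp2-DN and 188 FPKM in mock embryos, without a call (p = 0.941 and q = 0.969 in the authors' deposited table). sox17, a target of sox32 that marks endoderm cells (ENSDARG00000041345, 65288993 to 65291982), was at 4.18 FPKM in Dcp2-DN and 6.22 FPKM in mock embryos. It was 1.49-fold lower, a log2 ratio of -0.56, with p = 0.00285 and q = 0.0164 in the authors' deposited table. sox17 was the least abundant regulator in both groups. The level of sox32 was 44.8 times that of sox17 in Dcp2-DN and 30.2 times in mock embryos.

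The order of the levels per length was mostly shared by the groups. In Dcp2-DN embryos it ran hnf4a, sox32, mxtx1, gata6, mxtx2, gata5, sebox and sox17, from 221 down to 4.18 FPKM. In mock embryos it ran hnf4a, sox32, gata6, mxtx1, gata5, mxtx2, sebox and sox17, from 219 down to 6.22 FPKM. mxtx2 thus stood above gata5 in Dcp2-DN embryos and below it in mock embryos, and mxtx1 and gata6 also exchanged places. Without a spread over samples, it cannot be said which neighbours in either order differ.

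The lowest fold called differed little between levels, while the shares called and the median log2 ratio differed more. Among tested rows with a mean of 100 to 1000 FPKM, where mxtx1, hnf4a, sox32 and gata6 lie, the lowest fold called in the authors' deposited table was 1.2 for rises and 1.18 for falls. The folds of these 4 regulators, 1.01 to 1.12 after rounding, were all below that. Of tested rows at that level 9.11% were called higher and 10.5% lower, with a median log2 ratio of -0.13. The log2 ratios of the 4 regulators, -0.047 to 0.16, all lay above that median. At 10 to 100 FPKM, where mxtx2, sebox and gata5 lie, the lowest fold called was 1.2 in both directions and the median called rise was 1.47-fold. mxtx2 was above that median and sebox below it. There 24.5% of tested rows were called higher and 4.7% lower, with a median log2 ratio of 0.11. At 1 to 10 FPKM, where sox17 lies, the lowest fold called was 1.24 for rises and 1.22 for falls. The median called fall there was 1.52-fold, close to the 1.49-fold of sox17. At this level 19.0% of tested rows were called higher and 2.77% lower, with a median log2 ratio of 0.20. The lists that follow are set beside all tested rows, not beside rows of like level.

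**Figure D2:**
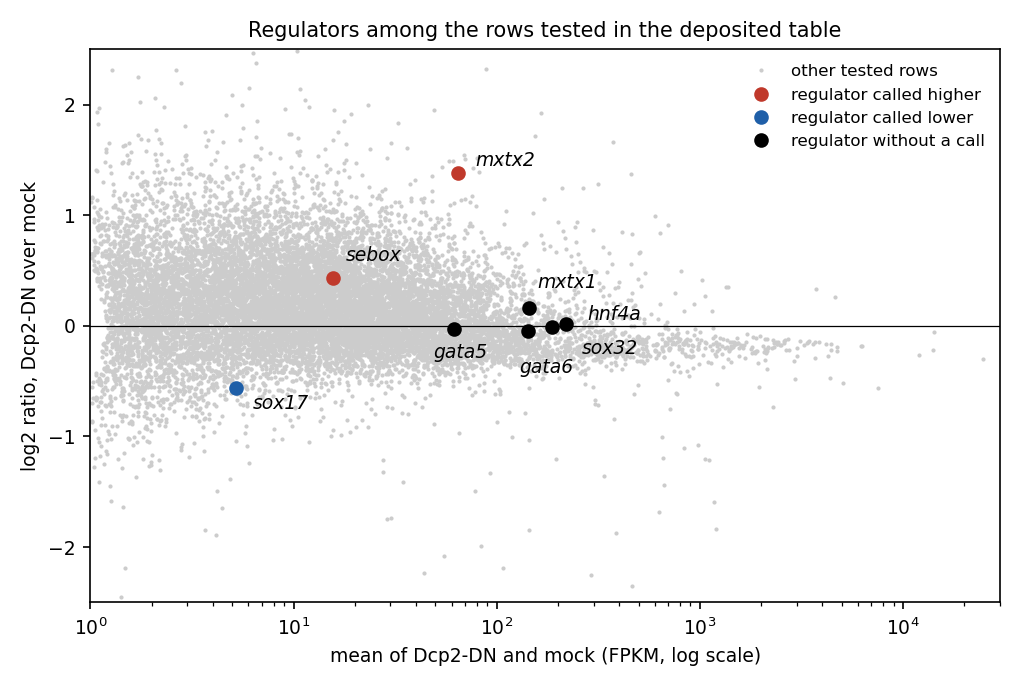
Log2 ratio of Dcp2-DN over mock (0.1 FPKM added to each value) against the mean of both groups in FPKM on a log axis, for rows that the authors tested and whose mean reached 1 FPKM; 37 of these rows lie beyond the vertical axis. The cloud of other rows is grey, and mxtx2 (log2 ratio 1.38) lies near its upper edge while the 5 regulators without a call lie between -0.047 and 0.16.

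The Nodal pathway, which lies upstream of the endoderm regulators in the cascade above, held more rises than falls. Of 16 tested genes, namely Nodal ligands, receptors, transducers and antagonists plus eomesa, 7 rose and 1 fell by the calls of the authors' deposited table, against 20.6% and 4.35% of all tested rows. Their median log2 ratio was 0.33. Without eomesa 6 of 15 rose. The T-box gene eomesa, which encodes Eomesodermin and acts with Nodal signals in endoderm formation, was at 22.7 FPKM in Dcp2-DN and 13.0 FPKM in mock embryos (1.76-fold higher). The Nodal ligand gene ndr1, expressed at the margin and in the YSL, was at 28.8 FPKM in Dcp2-DN and 17.8 FPKM in mock embryos (1.62-fold higher). The Nodal antagonist lft2 also rose (88.0 FPKM in Dcp2-DN and 50.8 FPKM in mock embryos), while the related lft1 fell (32.3 FPKM in Dcp2-DN and 41.4 FPKM in mock embryos). q was 0.000593 for the first 3 and 0.0179 for lft1 in the authors' deposited table.

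Other rises called in the authors' deposited table were those of the co-receptor gene oep, the transducer gene smad2, the ligand gene dvr1 and the receptor gene acvr2ab, and of these oep was at 175 FPKM in Dcp2-DN and 132 FPKM in mock embryos. Members without a call included the Nodal transcription factor gene foxh1, at 138 FPKM in Dcp2-DN and 126 FPKM in mock embryos. Unlike ndr1, the Nodal ligand gene ndr2 had no call, at 26.9 FPKM in Dcp2-DN and 23.9 FPKM in mock embryos (q = 0.334 in the authors' deposited table). The receptor gene acvr1b was at 126 FPKM in both groups, and acvr2b was at 61.6 FPKM in Dcp2-DN and 60.1 FPKM in mock embryos. lft1 and lft2 are known as targets of the microRNA miR-430 as well as of Nodal signals.

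Of 11 tested rows for maternal and early inputs to mxtx2 and the endoderm genes, 6 rose and 1 fell by the calls of the authors' deposited table, against 20.6% and 4.35% of all tested rows. Their median log2 ratio was 0.38. nanog, the maternal homeobox gene that acts through mxtx2, was at 613 FPKM in Dcp2-DN and 388 FPKM in mock embryos. It was 1.58-fold higher with q = 0.000593 in the authors' deposited table, so it was higher in the same embryos as mxtx2 but by a smaller factor. The vestigial-like gene vgll4l was at 106 FPKM in Dcp2-DN and 68.0 FPKM in mock embryos and rose as well (q = 0.000593 in the authors' deposited table), as did sox19b and eomesa. The beta-catenin gene ctnnb1 fell, at 341 FPKM in Dcp2-DN and 436 FPKM in mock embryos (q = 0.0135 in the authors' deposited table). pou5f1, the POU factor that works with sox32 on sox17, was at 793 FPKM in Dcp2-DN and 888 FPKM in mock embryos and was not called. Another member without a call, the SoxB1 gene sox3, was at 274 FPKM in Dcp2-DN and 268 FPKM in mock embryos. eomesa and foxh1 stand in this list and in the Nodal list. Both gene models of bon, described next, are among the 6 rises, so 1 gene may be counted more than once.

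bon, the Mix-type gene upstream of sox32, was carried by 2 gene models on chromosome 20, and reads of near-identical copies could have been split between them. ENSDARG00000069252 was at 40.0 FPKM in Dcp2-DN and 30.8 FPKM in mock embryos, and ENSDARG00000009737 was at 16.6 FPKM in Dcp2-DN and 12.3 FPKM in mock embryos. Both were called higher in the authors' deposited table, by 1.3-fold and 1.35-fold, close to the 1.35-fold of sebox. Among the relatives of the GATA members, gata3 was at 16.3 FPKM in Dcp2-DN and 14.3 FPKM in mock embryos, and gata2a was at 15.6 FPKM in Dcp2-DN and 15.8 FPKM in mock embryos. Neither was called. Of 11 rows for relatives of the 8 regulators, only the bon models, gata3 and gata2a had a test. The SoxF relatives sox7 and sox18, as well as gata4 and hnf4g, were under 1 FPKM in both groups and had none.

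A list of other genes of the endoderm and its migration had 7 rises and 0 falls among 12 tested rows by the authors' deposited table, against 20.6% and 4.35% of all tested rows. At an unadjusted p under 0.05 in that Cuffdiff test 9 were higher and 1 lower, against 27.5% and 8.22% of all tested rows. Their median log2 ratio was 0.33. her5, a hairy-related gene of the early endoderm and of the midbrain-hindbrain region, was at 65.7 FPKM in Dcp2-DN and 30.1 FPKM in mock embryos, 2.18-fold higher. The chemokine genes cxcl12b and cxcl12a, known at this stage from mesoderm rather than endoderm, also rose. Without them the list had 5 rises among 10 tested rows in the authors' deposited table. cxcl12b was at 16.1 FPKM in Dcp2-DN and 10.4 FPKM in mock embryos, and cxcl12a at 14.02 FPKM in Dcp2-DN and 9.998 FPKM in mock embryos, with q-values of 0.000593 and 0.00235 in the authors' deposited table. The receptor gene cxcr4b was called higher, at 266 FPKM in Dcp2-DN and 218 FPKM in mock embryos (q = 0.0173 in the authors' deposited table). The chemokines' receptor on endoderm cells, cxcr4a, was at 159 FPKM in Dcp2-DN and 137 FPKM in mock embryos and was not called. Nor was the forkhead gene foxa3, at 119 FPKM in Dcp2-DN and 107 FPKM in mock embryos, or the homeobox gene hnf1ba, at 29.97 FPKM in Dcp2-DN and 26.8 FPKM in mock embryos. The forkhead gene foxa2, the 1 gene lower at an unadjusted p under 0.05, was at 18.9 FPKM in Dcp2-DN and 22.6 FPKM in mock embryos and was not called (q = 0.110 in the authors' deposited table). Many of the listed genes are also expressed outside the endoderm, and the bon models are counted here too.

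A list of other YSL genes, which leaves out ndr1, held no called rise. Of 14 tested, 0 rose and 3 fell by the calls of the authors' deposited table, against 20.6% and 4.35% of all tested rows. At an unadjusted p under 0.05 in that Cuffdiff test 0 were higher and 5 lower, against 27.5% and 8.22% of all tested rows. Their median log2 ratio was -0.22. The methyltransferase gene bhmt was at 5.97 FPKM in Dcp2-DN and 8.12 FPKM in mock embryos (1.36-fold lower). The apolipoprotein genes apoa1a (35.3 FPKM in Dcp2-DN and 46.7 FPKM in mock embryos) and apoc1l (282 FPKM in Dcp2-DN and 339 FPKM in mock embryos) fell, with q-values of 0.0107 and 0.0382 in the authors' deposited table. The sulfate transporter gene slc26a1, a marker of the YSL, was at 81.2 FPKM in Dcp2-DN and 81.0 FPKM in mock embryos and was not called. Also without a call, apoeb was at 1735 FPKM in Dcp2-DN and 2036 FPKM in mock embryos, and the transcription factor gene cebpb was at 133 FPKM in Dcp2-DN and 128 FPKM in mock embryos.

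**Figure D3:**
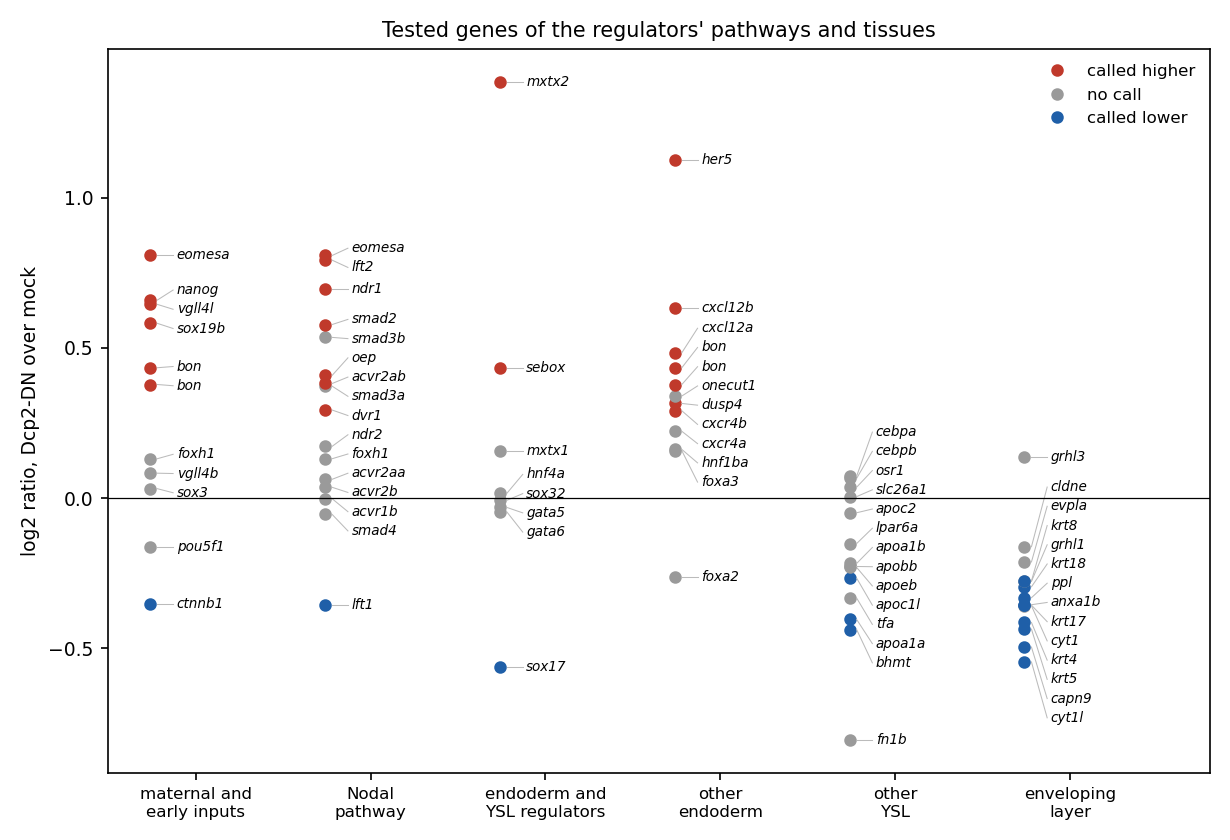
Log2 ratio of Dcp2-DN over mock (0.1 FPKM added) for each tested gene of 6 lists, coloured by the call in the authors' deposited table (red, higher; grey, no call; blue, lower); names are shifted for legibility and joined to their points by lines. mxtx2 at 1.38 lies above every other point drawn, and no gene in the column of other YSL genes, which leaves out ndr1, is called higher. The germ plasm markers are not drawn, and among them ca15b had a higher log2 ratio (1.71) than mxtx2.

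Markers of other parts of the embryo also differed between the groups, and their part in the results for the regulators was not tested. Of all tested rows 20.6% were called higher and 4.35% lower, or 27.5% and 8.22% at an unadjusted p under 0.05. For the enveloping layer, the outer epithelium, 9 of 14 marker genes fell and 0 rose in the authors' deposited table, or 10 and 0 at an unadjusted p under 0.05 in that Cuffdiff test, and the summed level was 3727 FPKM in Dcp2-DN and 4599 FPKM in mock embryos. For the germ plasm, 7 of 9 tested markers rose and 0 fell in the authors' deposited table, or 7 and 0 at an unadjusted p under 0.05 in that test, and the sum was 591 FPKM in Dcp2-DN and 351 FPKM in mock embryos. Most of the difference between these sums came from ca15b, at 236 FPKM in Dcp2-DN and 71.9 FPKM in mock embryos. The germ plasm markers vasa and piwil1 had no call, at 73.7 and 17.9 FPKM in Dcp2-DN and 82.3 and 23.1 FPKM in mock embryos. The sum over all rows was itself lower in Dcp2-DN embryos, at 908503 FPKM, than in mock embryos, at 963061 FPKM. Mesoderm and organizer markers had 5 rises and 4 falls among 17 tested rows, and neural and epidermal markers had 1 rise and 4 falls among 13. The largest of these falls was that of otx2, at 0.794 FPKM in Dcp2-DN and 2.08 FPKM in mock embryos (2.62-fold lower). wnt8a and aplnra were each carried by more than 1 gene model. krt17 and cyt1 of the enveloping layer share a locus span, so 1 gene may be counted more than once in these lists. None of the markers of these 4 lists was at 0 in both groups. For the regulators' own tissues, sox32 was at 187 FPKM or more and slc26a1 at 81.0 FPKM or more in each group. sox17 was at 4.18 FPKM in Dcp2-DN and 6.22 FPKM in mock embryos and was called lower in the authors' deposited table. Both SOX genes are among the 8 regulators, so they are no separate measure of endoderm. The list of other endoderm genes went the other way from sox17, with 7 rises and 0 falls among 12 tested rows in the authors' deposited table. slc26a1 is 1 of the 14 tested genes of the YSL list, which had 0 rises and 3 falls in that table.

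The genes closest to each called regulator in the plane of its mock and Dcp2-DN levels, on the log2 scale over these 2 values, were picked by distance alone. For sebox they were bag5 (a co-chaperone gene, 18.2 FPKM in Dcp2-DN and 13.4 FPKM in mock embryos), REV1 (a DNA polymerase gene) and exoc6b (an exocyst gene), at distances of 0.0059 to 0.015. bag5 and REV1 were called higher in the authors' deposited table, while exoc6b was not called (q = 0.0942 there). For sox17 they were celsr2l (4.15 FPKM in Dcp2-DN and 6.20 FPKM in mock embryos), MGST1 (1 of 2) and phf21aa, at 0.011 to 0.025. celsr2l and MGST1 (1 of 2) were called lower in the authors' deposited table, while phf21aa was not called (q = 0.188 there). Rows at nearly the levels of sebox and sox17 could thus go without a call. mxtx2 had no such near match: its closest rows lay at 0.14 to 0.17. They were a row with only a clone name, the small nucleolar RNA row SNORD35 (103.9 FPKM in Dcp2-DN and 36.4 FPKM in mock embryos), which was not called in the authors' deposited table, and the sorting nexin gene snx10a (89.9 FPKM in Dcp2-DN and 31.9 FPKM in mock embryos), which was called higher there.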

How the data were processed

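The data were 1 gene-level comparison table whose columns are those of Cuffdiff output. TopHat 1.4.0 and Cuffdiff 2.1.1 appear in the submitters' processing notes, as do danRer7 and Zv9, names of 1 genome build. The annotation, the scaling between libraries and the strand setting are not given in the sources used here. The table holds, per the file headers, a single FPKM value for each gene in each group, beside the authors' deposited p-value and q-value and a call. The call matched a q-value under 0.05 in every row with a test. The group names in the rows, mockB and DCP2, were matched to the sample titles. The deposited log2 fold change and test statistic were set aside because some of their cells hold no number.

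Rows were taken by symbol, whatever its case. A pseudocount of 0.1 FPKM was added to both values before the log2 ratio was taken, so changes of low genes come out too small, and folds are ratios without a pseudocount. Calls are the authors', made over 14810 tested rows of 32571, and no further test was possible with 1 value per group. Alternatives were pseudocounts of 1 and 0.01, thresholds on q, p and fold, and centring. Coordinates are the locus spans of the table on Zv9, with no statement whether a start is 0-based or 1-based. No row overlapped the span of any of the 8 regulators.

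The 8 regulators and the 10 lists (the regulators included) were chosen with earlier results of these data known. Lists could share genes and also hold symbols absent from the table. Genes named from a list are up to 3 called higher and 3 called lower by log2 ratio, and the 3 most abundant without a call. The marker lists are the exception. There the rule also picks genes, such as her3, ntlb, flh and dazl, that are given only as part of the counts. oep, smad2, dvr1, acvr2ab, ndr2, sox19b, foxa2, cxcr4b, ca15b, sox7, sox18, gata4 and hnf4g were named after their values were seen. For each called regulator, 3 tested rows at the smallest Euclidean distance of log2(FPKM + 0.1) were taken. Summaries were tested on simulated data. Computations used Python 3.11.15, NumPy 2.4.6, pandas 2.3.3 and matplotlib 3.10.9.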

Additional observations from a re-analysis of the deposited data

How the results depend on the processing

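Thresholds and pseudocounts cannot change the direction of a ratio, so of the alternatives only the centring described below could. The 3 called regulators kept their direction under both centrings, whose medians were smaller in size than the log2 ratios of these 3. With a fold minimum of 1.5 on a call, 1 regulator was called higher (mxtx2) and 0 lower, and at q under 0.01 there were 2 higher and 0 lower, all by the authors' Cuffdiff q-values; at an unadjusted p under 0.05 in that test the counts were 2 and 1. Pseudocounts of 1 and 0.01 moved no regulator's log2 ratio by more than 0.083. Centring subtracts the median log2 ratio of a set of rows from every gene. With that of the 15457 rows whose mean reached 1 FPKM (0.12) subtracted, the log2 ratios were 1.27 for mxtx2, 0.040 for mxtx1, -0.10 for hnf4a, -0.12 for sox32, -0.68 for sox17, 0.32 for sebox, -0.15 for gata5 and -0.16 for gata6, with a median of -0.11 over the 8. With that of 88 ribosomal protein rows (-0.21) subtracted, they were 1.59 for mxtx2, 0.37 for mxtx1, 0.23 for hnf4a, 0.20 for sox32, -0.35 for sox17, 0.64 for sebox, 0.18 for gata5 and 0.16 for gata6. The sign of the 4 smallest ratios, those of hnf4a, sox32, gata5 and gata6, thus depends on the centring. No gene called in the lists changed sign under either centring. No paired analysis was possible because the table holds 1 value per group, and for the same reason no replicate could be left out. Depth is unknown, so the precision of the low sox17 level rests on the authors' test.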

Other observations

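Rows within 20 kb of a regulator were mixed in their calls. mxtx2 has bms1l, a ribosome biogenesis gene, 2308 bases away by locus span, and this gene was called lower in the authors' deposited table (43.6 FPKM in Dcp2-DN and 56.2 FPKM in mock embryos), so the rise of mxtx2 was not shared by its nearest neighbour. The row on its other side, BX248124.2, was at 44.3 FPKM in Dcp2-DN and 41.7 FPKM in mock embryos, with no call. Beside mxtx1, which had no call, both nearest genes were called higher in the authors' deposited table: the fatty acid elongase gene elovl6l (151 FPKM in Dcp2-DN and 114 FPKM in mock embryos) and the tetraspanin gene tspan14 (63.8 FPKM in Dcp2-DN and 49.7 FPKM in mock embryos).

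Near sox32 and hnf4a, whose levels were close to equal in the groups, lay genes with large rises, but the nearest tested gene to each had no call. By locus span mrpl15 lay 11092 bases from sox32 and was 1.18-fold higher in Dcp2-DN embryos (q = 0.219 in the authors' deposited table). ttpal lay 2770 bases from hnf4a and was 1.43-fold higher (q = 0.32 there). The genes with large rises lay farther away. lypla1, an acyl-protein thioesterase gene 17506 bases from sox32, was at 4.47 FPKM in Dcp2-DN and 1.47 FPKM in mock embryos (3.04-fold higher), and pkig, a protein kinase A inhibitor gene 13463 bases from hnf4a, was at 12.8 FPKM in Dcp2-DN and 4.41 FPKM in mock embryos (2.91-fold higher). Both were called in the authors' deposited table. Beside sebox, unga, a uracil-DNA glycosylase gene, was at 54.4 FPKM in Dcp2-DN and 39.9 FPKM in mock embryos with q = 0.0994 there and no call, a fold of 1.36 beside the 1.35 of sebox. No row lay within 20 kb of sox17, gata5 or gata6.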
